A study of Chlamydomonas reinhardtii with 15 samples.

Results

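GSA is the gene of glutamate-1-semialdehyde aminotransferase in the green alga Chlamydomonas reinhardtii, locus CHLRE_03g158000v5 of the v5.5 annotation. It was chosen for its measured levels across the groups of the study and found on the array through its transcript number, which led to 1 specific probe among 16283 probes, and to 1 locus among 6656 locus tags that could be tied to a probe. All cultures were of the wild-type strain 4A+, whose background is 137c, and grew with acetate in the light at 25 °C and 100 µmol photons per square metre and second. They were exposed for 2 h to 3 µM neutral red (NR), which in light produces singlet oxygen, to tert-butylhydroperoxide (tBOOH, 100 µM), an organic hydroperoxide, to DBMIB (2 µM), a quinone inhibitor of photosynthetic electron transport, or to 0.3 mM of the leaf aldehyde 2(E)-hexenal (Hexenal), an electrophile. Control cultures were incubated for the same time with no chemical, and the labels name no solvent for them. Each of the 5 groups had 3 biological replicates, each on its own one-colour array.

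GSA is a pyridoxal phosphate-dependent enzyme of the plastid that turns glutamate-1-semialdehyde into 5-aminolevulinic acid, the precursor from which plants and algae build all their tetrapyrroles, among them chlorophyll and heme. It completes the plant type of 5-aminolevulinic acid synthesis, which starts from glutamate carried by a tRNA and is reduced first by glutamyl-tRNA reductase. In Chlamydomonas the GSA transcript is known to respond to light.

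Across the whole series, replicate arrays of a group correlated at 0.983 or more over all probes, and between 72.7% and 89.8% of probes were well above background on the treated arrays. Precision is set by having 3 arrays a group. Levels are the authors' deposited log2 signals, which are quantile-normalized, so that each array has the same distribution of values and a level is relative to the other transcripts on that array. A change in cell number, or one in RNA per cell that all transcripts share, would not by itself show in such values.

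The GSA transcript was highest in control cultures, lower in all treated cultures, and lowest by far under tBOOH. In control its log2 level was 12.90, 13.07 and 13.18 in replicates 1 to 3, a mean of 13.05 ± 0.14 (SD, n = 3). Under NR it was 12.65, 11.30 and 11.87, a mean of 11.94 ± 0.68 (SD, n = 3). The NR arrays thus spread widely, with replicate 1 within 0.25 of the lowest control array, but did not overlap with control. Under DBMIB the level was 9.699, 9.606 and 9.974, a mean of 9.76 ± 0.19 (SD, n = 3). Under Hexenal it was 8.773, 8.893 and 9.892, a mean of 9.19 ± 0.61 (SD, n = 3), with replicate 3 well above both others and inside the DBMIB range. Under tBOOH it was 4.487, 4.278 and 4.960, a mean of 4.58 ± 0.35 (SD, n = 3), and the gap to the lowest Hexenal array was 3.81.

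**Figure D1:**
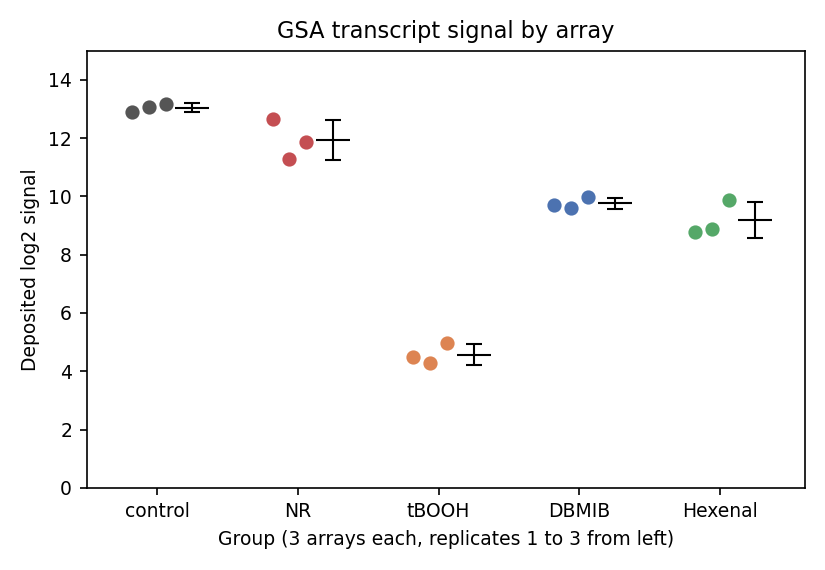
Deposited log2 signal of the GSA probe (vertical axis) on each of the 15 arrays by group, replicates 1 to 3 from left to right; horizontal bars are group means and whiskers the SD over 3 arrays. Control arrays sit at 12.90 to 13.18 and tBOOH arrays at 4.278 to 4.960, with DBMIB and Hexenal overlapping in between.

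The order of the group means was control, NR, DBMIB, Hexenal and tBOOH. Of the 4 steps in this order, only that from DBMIB to Hexenal, a difference of 0.57, lay within the spread of the arrays, since the lowest DBMIB array (9.606) was below the highest Hexenal array (9.892). The step from control to NR was 1.11, that from NR to DBMIB 2.18 and that from Hexenal to tBOOH 4.61. These levels chose the gene, so they are given as a description and carry no test.

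As a share of the control signal, the GSA signal was 46.3% under NR, 10.2% under DBMIB, 6.87% under Hexenal and 0.281% under tBOOH. The corresponding differences from control were -1.11 on the log2 scale under NR (2.16-fold lower), -3.29 under DBMIB (9.78-fold lower), -3.86 under Hexenal (14.6-fold lower) and -8.475 under tBOOH (356-fold lower). The tBOOH share and fold rest on spots close to the background. Their size under another background model was not examined against control. All 4 differences share the same 3 control arrays. In each of them the arrays of both groups did not overlap. For all 4 treatments at once, every treated array lay below every control array in 12.1% of probes. Single treatments were not counted this way. A limma adjusted p under 0.05 is another measure. By it 21.3% of all probes were called lower for NR, 28.2% for tBOOH, 30.4% for DBMIB and 25.7% for Hexenal. With every array centred on 7 spike-in features in place of the deposited scale, the differences were -1.26, -8.66, -3.83 and -4.14 for NR, tBOOH, DBMIB and Hexenal. That scaling moved the median of all probes by -0.15, -0.18, -0.54 and -0.28 in that order. Relative to that median GSA stood at -1.12, -8.57, -3.35 and -3.99. These values are the same under both scalings by arithmetic, since the centring shifts all probes of an array alike. The spike-in offsets of single arrays ran from -0.571 to -0.019 in control and from -0.431 to 0.183 under tBOOH. The median shifts for NR and tBOOH were small beside that spread.

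Set among the changes of all probes, the position of GSA differed from treatment to treatment. By measured means, probes below background included, it had the third lowest difference of 16283 probes under tBOOH, with 2 probes lower. Under DBMIB 318 probes and under Hexenal 344 probes had larger differences in the same direction, so that 1.96% and 2.12% of probes were as low as GSA or lower. Under NR 1784 probes were lower than GSA, and 11% were as low or lower. The lowest 5% of all probes began at -1.75 for NR, -2.70 for tBOOH, -2.65 for DBMIB and -2.75 for Hexenal, so GSA was inside that margin for all treatments but NR. The rank under tBOOH also reflects the high control level of GSA, 13.05, where the median of each array was 6.953. Most probes thus started too low for a difference of -8.475, and those bright enough were not counted.

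**Figure D2:**
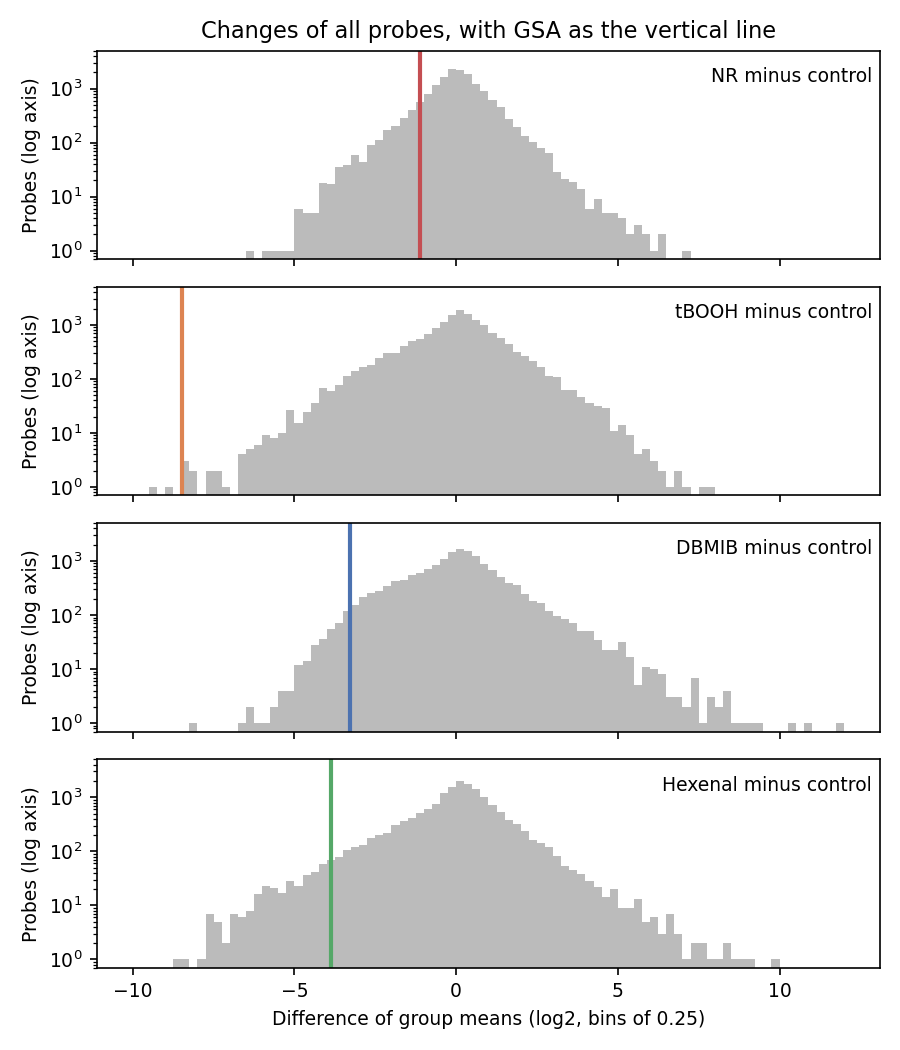
Number of probes (vertical axis, log scale) by difference of group means from control in bins of 0.25 log2 (horizontal axis), 1 panel per treatment; the coloured line marks GSA. The line lies at -1.11 under NR, inside the bulk of probes, and at -8.475 under tBOOH, at the left edge.

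Few probes shared the full pattern. Every treated array lay below every control array for 1964 probes (12.1%), GSA among them, and every tBOOH array lay below all other arrays for 992 probes (6.09%). Only 80 probes (0.491%) had all control arrays above all NR arrays, these above all DBMIB and Hexenal arrays, and these in turn above all tBOOH arrays. Between the highest and lowest group mean, GSA spanned 8.475 on the log2 scale, and 0 of the 80 probes spanned more; their median was 3.64. Over all probes the median span was 1.51, and 18 probes spanned more than GSA. GSA was picked for this pattern, so the counts describe where it stands and test nothing. Among the 80, a span this wide also needed a control level above 8.475, and how many had one was not counted.

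The scanner tables of the 12 treated arrays show the 3 spots of the GSA probe one by one. Under NR the background-subtracted signal of the spots ran from 6710 to 7640 intensity units in replicate 1, from 2820 to 3000 in replicate 2 and from 3780 to 4280 in replicate 3. Under DBMIB it ran from 564 to 633, from 581 to 640 and from 727 to 782 in the same order. The Hexenal spots read 330 to 352, 428 to 442 and 852 to 882. The spots of an array thus lay close together, and the gap between Hexenal replicate 3 and the other Hexenal arrays was present in all 3 spots. The spot SD on the log2 scale was at most 0.0998 on the NR, DBMIB and Hexenal arrays, against an SD between arrays of 0.68, 0.19 and 0.61 for the deposited levels.

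Under tBOOH the GSA spots were close to the background. Their background-subtracted signals were 20.3, 14.9 and 17.1 in replicate 1, 21.6, 19.1 and 19.6 in replicate 2, and 34.3, 24.5 and 33.1 in replicate 3. The median local background was 24, 33 and 39 units on those arrays, so the remaining signal of each spot was smaller than the local background. The raw median signals were 55 to 62, 58 to 63 and 62 to 74.5 units. By these medians, more than the local background was taken off in replicate 1, and how that amount was set was not examined. The scanner software still marked 8 of the 9 spots, and at least 2 of 3 on each array, as well above background, and it flagged none as non-uniform or as an outlier. The size of the tBOOH difference depended on the processing of the scanner signals. In an alternative, median spot signals, a normexp background model, an offset of 50 units and quantile normalization were all brought in together. That offset is more than the tBOOH spots read after background subtraction. The log2 difference between NR and tBOOH was then 4.79 and not 7.49. Which of these steps moved it was not tested.

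**Figure D3:**
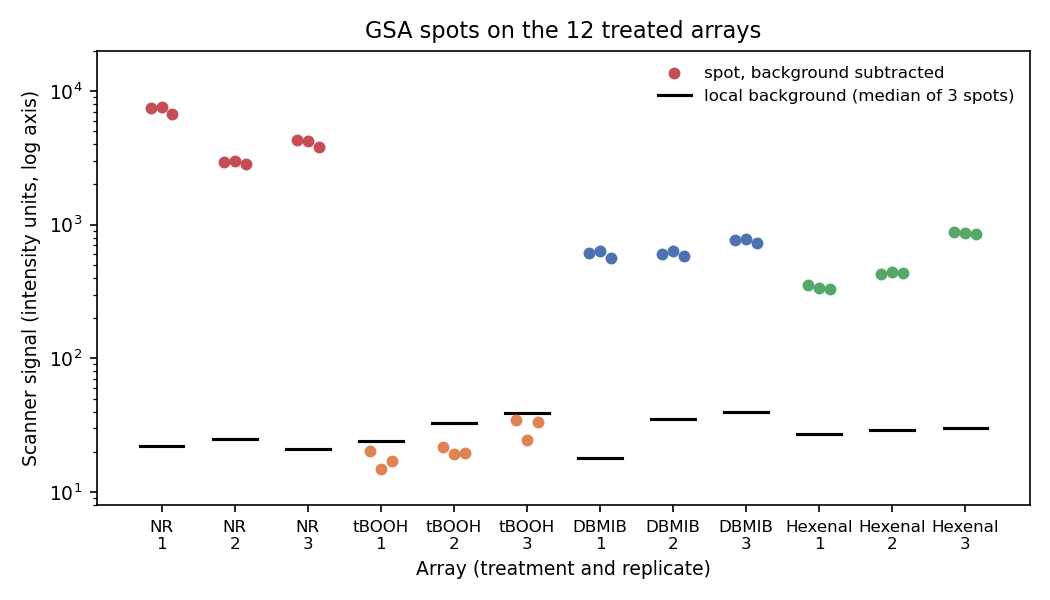
Background-subtracted signal of the 3 GSA spots (points, intensity units, log axis) on each treated array, with the median local background of these spots (black bars). The NR spots lie between 2820 and 7640 and the tBOOH spots between 14.9 and 34.3, below their local background of 24 to 39.

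Between treatments, GSA was compared in the 6 possible pairs on the scanner signals, each array centred on its 75th percentile so that 0 is that percentile. On this scale the level was 2.60 ± 0.65 under NR, 0.40 ± 0.20 under DBMIB, -0.23 ± 0.67 under Hexenal and -4.89 ± 0.43 under tBOOH (SD, n = 3 each). NR lay 4.58-fold above DBMIB (log2 difference 2.20), 7.10-fold above Hexenal (2.83) and 180-fold above tBOOH (7.49). tBOOH lay 39.2-fold below DBMIB (-5.29) and 25.3-fold below Hexenal (-4.66), and with the normexp and quantile processing above these log2 differences were -2.81 and -2.30. In these 5 pairs the arrays did not overlap. The share of all probes without overlap was not counted for these pairs, so this only describes GSA. DBMIB and Hexenal differed by 0.63, with overlapping arrays. Leaving out 1 array at a time kept that difference between 0.40 and 1.02. Only 1 probe had a larger excess of NR over tBOOH than GSA, whereas 679 probes had a larger excess of NR over DBMIB and 305 a larger excess of NR over Hexenal. The chemicals were used at different doses, so the values stand side by side for these doses only.

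The spread of GSA within groups was uneven. Under NR 2.89% of all probes and under Hexenal 4.67% had a larger SD than GSA, against 21.3% under tBOOH, 67.1% under DBMIB and 78.6% in control. The NR arrays with the lower GSA levels, replicates 2 and 3, also differed more from control over all probes, with a root mean square change of 1.13 log2 in both, against 0.976 in replicate 1, where the difference of GSA from the control mean was only -0.40. The Hexenal arrays had root mean square changes of 1.55, 1.59 and 1.52 while the difference of GSA from the control mean was -4.28, -4.16 and -3.16. The part of these array-wide sizes in the spread of GSA was not tested. Without 1 array at a time, the NR difference from control ranged from -1.46 to -0.79, the Hexenal difference from -4.22 to -3.66, the DBMIB difference from -3.40 to -3.21 and the tBOOH difference from -8.67 to -8.33.

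Other transcripts followed GSA closely over the 15 arrays. Likeness was measured by Pearson's r with the GSA level over the 15 deposited values, which fall into 5 groups that all probes share, so r describes the match of the group pattern first of all. Of 16282 other probes, 28 had an r of at least 0.95 and 123 (0.755%) of at least 0.9, while 185 had an r of -0.9 or lower, and the median was -0.07. The 10 most similar loci with a tag and a specific probe had r from 0.960 to 0.979 and Spearman's rho from 0.887 to 0.975. In all 10 the control mean was the highest, NR came second and tBOOH was the lowest; over all probes control was highest in 24.6% and tBOOH lowest in 17.6%. The tBOOH arrays carry much of this match, and r over the other 12 arrays ran from 0.858 to 0.976. Without the 2 arrays farthest from the GSA median it ran from 0.926 to 0.970.

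CHLRE_07g342150v5 had the highest r of the 10 (0.979) but a much flatter profile, with 0.189 log2 units for each unit of GSA. Its level was 13.06, 13.28 and 12.93 in control and 11.51, 11.49 and 11.47 under tBOOH, a difference of -1.60, against -0.18 under NR, -0.66 under DBMIB and -0.68 under Hexenal. CHLRE_07g325500v5 (r = 0.972) came nearest to GSA in size, with a root mean square distance of 0.703 log2 between both profiles and a slope of 0.911. It was at 15.41, 15.31 and 15.08 in control, 15, 13.98 and 14.39 under NR, and 7.416, 7.635 and 8.186 under tBOOH. Its differences from control were -0.81 for NR, -7.52 for tBOOH, -3.71 for DBMIB and -4.74 for Hexenal, so it was lower than GSA by this measure under DBMIB and Hexenal and higher under NR and tBOOH. CHLRE_12g484200v5 (r = 0.976) had differences of -1.30, -5.88, -3.26 and -3.39 for NR, tBOOH, DBMIB and Hexenal. The tables used here give these loci no symbol.

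The remaining 7 were CHLRE_03g158900v5, CHLRE_11g479750v5, CHLRE_07g335300v5, CHLRE_03g182150v5, CHLRE_03g145207v5, CHLRE_03g175250v5 and CHLRE_10g452100v5. Over all 10, the differences from control ran from -1.64 to -0.09 under NR, from -7.52 to -1.60 under tBOOH, from -3.71 to -0.66 under DBMIB and from -4.74 to -0.68 under Hexenal. By these differences 4 of the 10 were lower than GSA under NR, 2 under DBMIB and 1 under Hexenal. Under tBOOH none of the 8 that were well above background on at least 2 arrays was as far below control as GSA, which was chosen for its levels. Among them, CHLRE_03g158900v5, CHLRE_11g479750v5 and CHLRE_07g335300v5 had control means of 9.24, 9.34 and 7.54. They had little or no room for a difference of -8.475. CHLRE_03g145207v5 and CHLRE_03g175250v5 were not well above background on any tBOOH array. There only a bound can be given, which is at least 52.5-fold below control for the first of them and at least 4.90-fold for the second, so their order against GSA is not known. CHLRE_11g479750v5 and CHLRE_07g335300v5 were well above background on 2 of 3 tBOOH arrays.

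Within groups, too, several of these loci moved with GSA from array to array. After the group means were taken off, the correlation with GSA over the 15 arrays was 0.809 for CHLRE_10g452100v5, 0.745 for CHLRE_11g479750v5 and 0.711 for CHLRE_07g325500v5. CHLRE_10g452100v5 was at 15.20, 13.60 and 14.44 on the NR arrays and at 13.54, 13.40 and 14.11 on the Hexenal arrays, so NR replicate 1 and Hexenal replicate 3 were the highest of their groups, as for GSA. For CHLRE_03g182150v5 and CHLRE_03g175250v5 the value was 0.013 and -0.043. It was above 0 for 9 of the 10 loci and for 47.2% of all probes. The choice of loci used the same arrays, so these values are a description. The part in them of deviations shared by arrays of the same replicate number was not tested.

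The list of loci depends on the measure. By r over the 5 group means, only 2 of these 10, CHLRE_07g342150v5 and CHLRE_03g158900v5, remained among the 10 most similar. By distance between the control-centred profiles, only 3 remained, CHLRE_12g484200v5, CHLRE_07g325500v5 and CHLRE_03g145207v5.

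**Figure D4:**
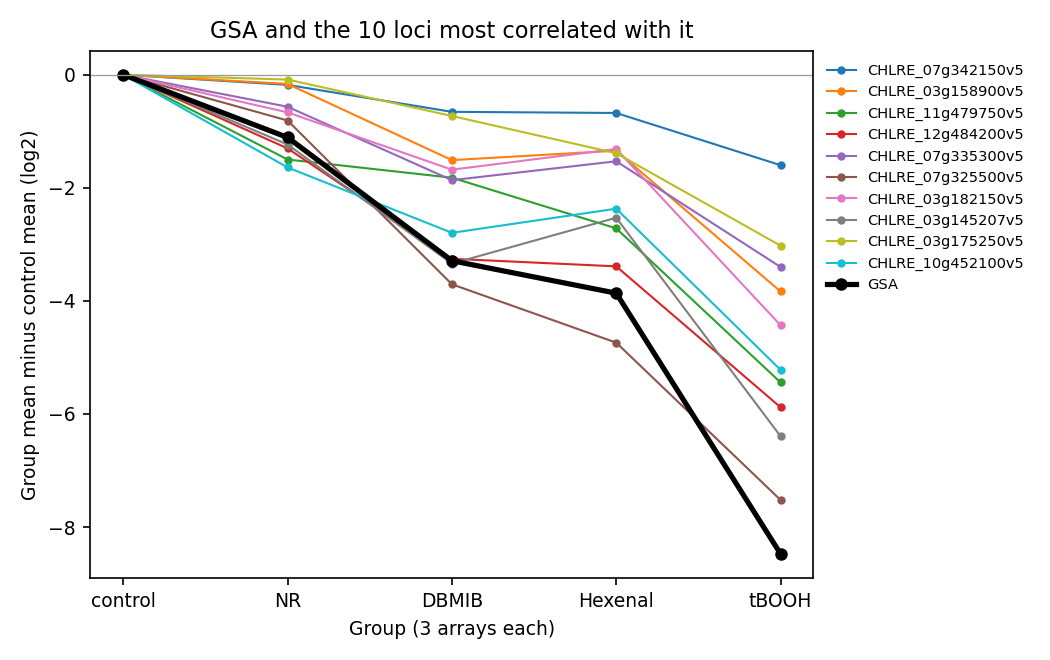
Group mean minus control mean (vertical axis, log2) in the 5 groups for GSA (black) and the 10 loci with the highest Pearson's r over 15 arrays (coloured lines). All lines are lowest at tBOOH, and GSA has the lowest measured mean there, -8.475. Loci with a low control level had little or no room to fall that far.

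The loci around GSA in the genome, chosen by position and not by their values, were tested with limma over all 16283 probes. They were the 10 nearest loci with a probe on each side in the order of the v5.5 annotation, between 2 and 57 loci away. Under NR 7 of these 20 were called higher and 5 lower at an adjusted p under 0.05, or 60% in all against 45.0% of all probes, of which 23.7% were called higher. Under tBOOH 8 were higher and 6 lower (70% against 60.1% of all probes, 31.9% higher). Under DBMIB it was 4 and 7 (55% against 61.9%, 31.5% higher), and under Hexenal 5 and 5 (50% against 57.3%, 31.6% higher). The medians of their differences from control were 0.22 (NR), 0.20 (tBOOH), -0.21 (DBMIB) and 0.02 (Hexenal), beside 0.01, 0.10, 0.06 and 0.13 for all probes. With spike-in centring the higher and lower calls numbered 3 and 3 for NR, 3 and 6 for tBOOH, 3 and 10 for DBMIB, and 5 and 6 for Hexenal. With that centring 34.6%, 50.5%, 57.5% and 46.3% of all probes were called in the same order of treatments, and 41.1%, 44.1%, 27.2% and 39.3% of these calls were higher, so the calls of all probes moved to lower ones as well. None of the 18 neighbours with at least 1 tBOOH array well above background was as far below control under tBOOH as GSA. GSA was chosen for its levels, so this is a description only. Neighbours that were dim or at mid levels in control, such as CHLRE_03g157475v5 at 3.60 and CHLRE_03g158100v5 at 7.27, had little or no room for a difference of -8.475. For these the outcome was fixed in advance. CHLRE_03g156900v5, at 15.41 in control, had that room.

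The closest of them, CHLRE_03g158100v5, lies 2 loci after GSA. It was at 7.27 ± 0.27 in control and 7.30 ± 0.19 under NR (limma adjusted p = 0.924). It fell by 2.11 on the log2 scale under tBOOH, to 5.16 ± 0.25 (SE 0.226, limma adjusted p = 1.36e-06). It also fell under DBMIB (log2 change -2.38, limma adjusted p = 3.72e-07), where 2 of 3 arrays were well above background, and under Hexenal (-1.27, limma adjusted p = 0.00021). CHLRE_03g158150v5, the locus after it, went the other way under DBMIB and Hexenal. It rose from 11.19 ± 0.37 in control to 13.90 ± 0.42 under DBMIB (log2 change 2.71, SE 0.214, limma adjusted p = 6.19e-08) and to 13.42 ± 0.17 under Hexenal (2.22, adjusted p = 4.76e-07). Under NR and tBOOH its differences of -0.21 and -0.05 did not pass (limma adjusted p = 0.457 and 0.87).

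Before GSA, the nearest locus with a probe was CHLRE_03g157600v5, 9 loci away. It fell by 0.50 under NR (limma adjusted p = 0.0172), a call that was lost without control replicate 1 (adjusted p = 0.0509), without NR replicate 2 (0.0554) and with spike-in centring (0.0546). Its differences under tBOOH, DBMIB and Hexenal, 0.01, 0.29 and 0.14, did not pass (limma adjusted p = 0.969, 0.119 and 0.469). CHLRE_03g157475v5, 14 loci away, rose in all 4 treatments, by 1.19 (NR), 2.16 (tBOOH), 2.22 (DBMIB) and 1.31 (Hexenal), from a low control level of 3.60 ± 0.25.

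Calls in the same direction in all 4 treatments, which share the control arrays, were found for 6 of the 20, beside 22.5% of all probes (11.1% higher and 11.4% lower). CHLRE_03g157475v5 and CHLRE_03g158500v5 rose in each. CHLRE_03g157000v5, CHLRE_03g156950v5 and CHLRE_03g156900v5, which follow each other 26 to 28 loci before GSA, fell in each, as did CHLRE_03g158400v5, 8 loci after it. CHLRE_03g156900v5 fell the most of these, from 15.41 ± 0.38 in control, with log2 changes of -2.28 for NR, -3.05 for tBOOH, -4.19 for DBMIB and -3.91 for Hexenal (SE 0.438, limma adjusted p from 9.78e-07 to 0.000662). It thus changed more under DBMIB than under tBOOH, whereas the GSA difference was -8.475 under tBOOH and -3.29 under DBMIB. CHLRE_03g157000v5 was well above background on 1 of 3 DBMIB arrays and CHLRE_03g158400v5 on 1 of 3 tBOOH arrays. The NR calls of CHLRE_03g157000v5, CHLRE_03g156950v5 and CHLRE_03g158500v5 were small (-0.62, -0.64 and 0.44) and were lost when single arrays were left out. For CHLRE_03g157000v5 these were control replicate 2 and NR replicates 2 and 3. For CHLRE_03g156950v5 they were control replicates 2 and 3 and NR replicates 2 and 3. For CHLRE_03g158500v5 they were control replicates 2 and 3 and each NR array. With spike-in centring the NR calls of CHLRE_03g157000v5 and CHLRE_03g158500v5 did not pass either (limma adjusted p = 0.0751 and 0.438).

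**Figure D5:**
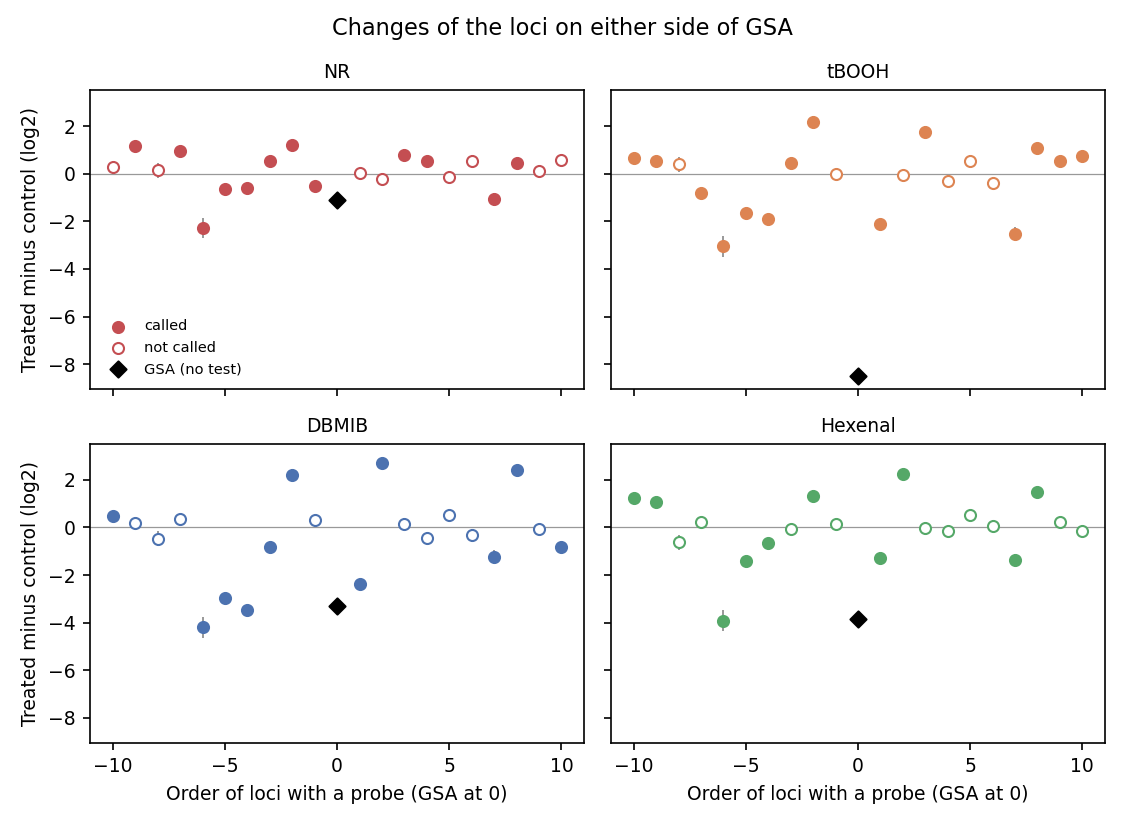
Difference from control (vertical axis, log2, with the SE of the limma fit) for the 10 loci with a probe on each side of GSA, in their order along the genome (horizontal axis, GSA at 0), 1 panel per treatment. Filled circles passed an adjusted p of 0.05 and open circles did not. The black diamond is GSA, which was chosen for its levels and was not tested. It lies at -8.475 under tBOOH, below every circle, but loci with a low or mid control level had no room to fall that far.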

How the data were processed

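RNA labelled with Cy3 alone was hybridised to custom arrays from Agilent, per the labels' protocols. The authors deposited 1 table of log2 values for all 15 arrays. From its values, the sorted columns differ by at most 0.01 and each median is 6.953, so it was quantile-normalized; probes rank as in the scanner tables (Spearman correlation 1). The scanner tables of the 12 treated arrays, as deposited, hold linear intensity per spot, background-subtracted but not normalized between arrays, with 0 or 1 flags per the file headers. Software versions are not given in the sources used here. For the control arrays only the deposited log2 values were analysed here.

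Differences from control used the deposited values; tests used limma 3.58.1 (R 4.3.3; lmFit and eBayes, 5 groups in 1 fit, Benjamini-Hochberg over 16283 probes, two-sided), after the code was tested on simulated data. Pairs of treatments used log2 processed signal, averaged over unflagged spots, minus the 75th percentile. A probe was well above background where at least 0.5 of its spots were. Probes were tied to locus tags of RefSeq assembly Chlamydomonas_reinhardtii_v5.5 through transcript numbers below 200000 (6744 of 15243 specific probes); the build is later than that of the array, so no coordinates are given. That table holds 0 gene symbols, so a list of other tetrapyrrole genes was not counted, and the name GSA rests on the known annotation of its locus. Named were the 10 loci most correlated with GSA, the 2 nearest loci on each side, and, chosen after their values were seen, neighbours called alike in all treatments. Bounds given as at least N-fold set the control mean against the dim group's mean, in which each array counts with its lowest value well above background or with what the probe itself read, if that was higher. Replicate numbers did not pair the arrays by the criterion used, an r above 0.1 in every pair. Of pairs with the same number, 20 of 30 met it, with a median r of 0.127. Of other pairs 3 of 60 did, with a median of -0.064, so arrays of the same number were more alike. The gene, lists and tests were chosen with earlier results of these data known.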

Additional observations from a re-analysis of the deposited data

How the results depend on the processing

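The 10 differences of GSA between groups kept their direction under all 114 alternatives, and 106 of these moved them by less than 1 SD between arrays. Most of that count was fixed in advance. Leaving out a single array of 3 cannot move a difference by that SD, and the replicate block cannot move it at all. No alternative for the differences from control changed the background model. With normexp and quantile normalization, the difference of NR minus tBOOH was 4.79, that of tBOOH minus DBMIB -2.81 and that of tBOOH minus Hexenal -2.30, with the signal column, background model, offset and normalization changed together. DBMIB minus control was -3.83 with spike-in centring, -3.05 when centred on the median of the brightest probes, and, in a setting added after the data were seen, -3.74, -3.89 and -3.87 with spike-in centring and without control replicates 1, 2 and 3; both scalings move all probes alike. The ranges without single arrays stand in the report for differences from control; between treatments they were 7.14 to 7.79 (NR minus tBOOH), 1.85 to 2.496 (NR minus DBMIB), 2.48 to 3.21 (NR minus Hexenal), -5.54 to -5.13 (tBOOH minus DBMIB) and -4.91 to -4.28 (tBOOH minus Hexenal).

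Of the 20 neighbouring loci, 12 (NR), 14 (tBOOH), 11 (DBMIB) and 10 (Hexenal) were called. With spike-in centring 6 were called under NR and 9 under tBOOH, where 34.6% and 50.5% of all probes were. With 5 loci on each side it was 7, 6, 6 and 5 of 10, and with a mean of at least 5 it was 12, 12, 10 and 8 of 16, against 53.2%, 67.5%, 68.3% and 63.7% of all probes over that mean. Leaving out single arrays gave 8 to 12, 12 to 15, 11 to 13 and 10 to 11. With the replicate number as a block the counts were 12, 14, 11 and 10, and the GSA differences did not move, since the design is balanced. Under the block 7 of the 10 loci most like GSA were the same, and 2 and 3 by group means and by distance. Each of the 15 arrays correlated best, on average, with arrays of its own number, a hint from the data that the labels do not state.

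Changes of sign concerned differences that were not called. With spike-in centring CHLRE_03g157600v5 was at -0.17 (tBOOH), -0.25 (DBMIB) and -0.14 (Hexenal), and CHLRE_03g158100v5 at -0.11 under NR. Without single arrays, CHLRE_03g157600v5 ranged from -0.026 to 0.058 under tBOOH, CHLRE_03g158100v5 from -0.074 to 0.188 under NR and CHLRE_03g158150v5 from -0.22 to 0.14 under tBOOH. Alternatives for the list of tetrapyrrole genes were not run, because no table here names its members.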

Other observations

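Of the 10 loci most correlated with GSA, 4 carry tags of the 03g series of the v5.5 annotation, as GSA itself does, against 9.91% of probes with a tag. The nearest, CHLRE_03g158900v5, lies 19 loci after GSA with 10 other loci that have a probe in between. Its level was 9.61, 9.248 and 8.870 in control, 9.246, 8.896 and 9.096 under NR, 7.965, 7.272 and 7.959 under DBMIB, 7.897, 7.685 and 8.114 under Hexenal, and 5.636, 5.122 and 5.467 under tBOOH. CHLRE_03g145207v5, CHLRE_03g175250v5 and CHLRE_03g182150v5 lie 301, 375 and 528 loci away. These counts were made after the loci were seen and were not tested.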
